A study of Mus musculus with 17 samples.

Results

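The forebrain was compared between newborn mice that carried 1 working copy of osteocalcin and wild-type mice, with 3 libraries a group out of 17 in the series. The libraries were taken by tissue and genotype label. The heterozygous pups (Ocn+/-) were born from Ocn-/- mothers and the wild-type pups (WT) from WT mothers, so the genotype of the pup, the genotype of the mother and the litter cannot be told apart. All pups came from the Ocn_GK strain, in which the gene was removed by homologous recombination, on a 129/SvEv background, were taken at postnatal day 1 and were stated to be male. The sample labels name the tissue as hippocampus, whereas the methods of the study name the forebrain including the hippocampus. The 3 Ocn-/- forebrains from Ocn-/- mothers shared the fit and the WT controls. The rest of the series is testis from the same genotypes. The question was which genes of the newborn brain depend on osteocalcin of the pup and of its mother.

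Osteocalcin is a hormone made by osteoblasts of bone, and in the brain it is known to act through the receptors Gpr158 and Gpr37. Glucose crosses the blood-brain barrier and enters glia through the transporter encoded by Slc2a1, and cells of the brain break it down by glycolysis to pyruvate and lactate. Genes of glucose uptake and glycolysis, together with the vessel growth factor gene Vegfa, are textbook targets of the hypoxia-inducible factors (HIF), which bind DNA at a short core motif when oxygen is low. Microglia are the resident macrophages of the brain, and a subset of them in developing white matter makes osteopontin (Spp1) and insulin-like growth factor 1 (Igf1).

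The WT replicate 3 library (WT 3) stood apart from the other 8 forebrains. Ribosomal and other structured RNAs took 10.9% of its counts and 0.483% to 1.10% of the others, and its total was 6518151 counts against 8778595 to 14621584. It held 11704 counts of Xist, a transcript of the inactive X chromosome of females, and 0 counts of the Y-linked genes Ddx3y, Eif2s3y, Kdm5d and Uty, whereas the others held 0 to 7 counts of Xist and at least 109 of each Y-linked gene. These counts go against the stated male sex, and the genotype label of this library could not be checked. Tests are therefore given with all libraries and without WT 3, and the summed level of a marker list also without WT 3 where that library set one end of the WT range. Markers of the hippocampus and telencephalon summed to 3814 to 4846 CPM (counts scaled by TMM to a total of 1000000) in WT (3814 to 4128 without WT 3) and 3402 to 3788 in Ocn+/-. Midbrain and hindbrain markers summed to 5.41 to 8.72 CPM in WT (5.41 to 5.795 without WT 3) and 5.88 to 7.36 CPM in Ocn+/-, and up to 10 of the 14 were at 0 in any of these 6 libraries. Counts of Bglap, the osteocalcin gene, were 0 to 5 per forebrain library, so the genotypes could not be checked from these data.

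**Figure D1:**
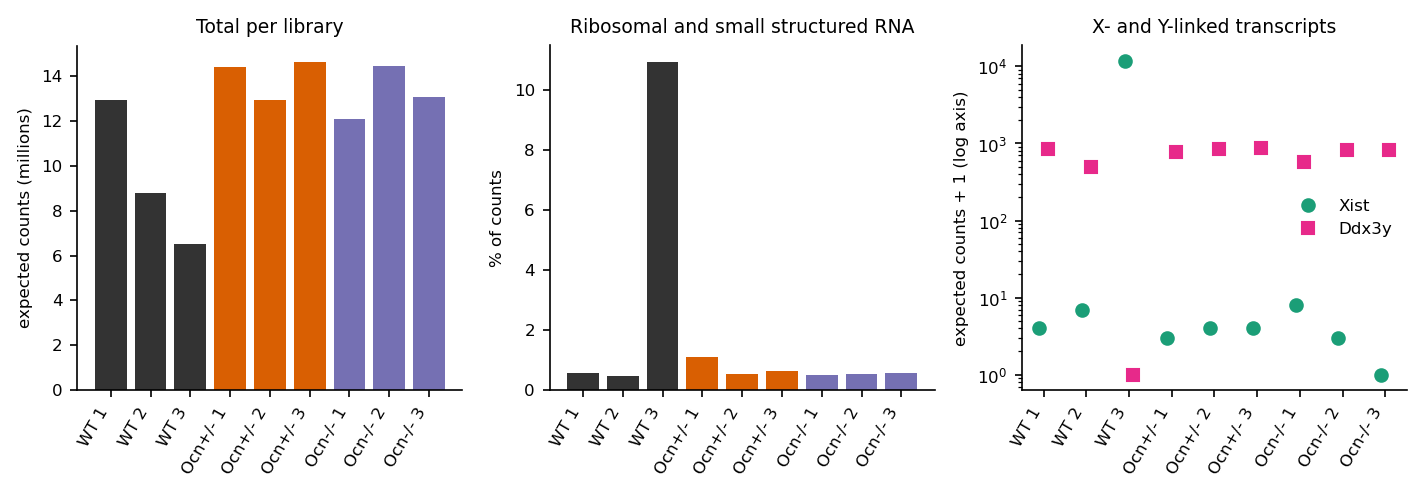
The panels plot, for each of the 9 forebrain libraries, the total count, the percent of counts from ribosomal and other structured RNAs, and the counts of Xist and the Y-linked Ddx3y plus 1 on a log axis. WT 3 is the library with the lowest total, 10.9% structured RNA and 11704 counts of Xist.

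With all libraries, 625 of 16076 genes tested differed between Ocn+/- and WT forebrain, or 3.89% of them (quasi-likelihood test of edgeR, Benjamini-Hochberg adjusted p under 0.05). Of these, 194 were higher (1.21%) and 431 lower (2.68%) in Ocn+/-. Without WT 3, 183 of 16432 genes passed (1.11%), 34 higher (0.207%) and 149 lower (0.907%). Both fits shared 174 genes, 29 higher and 145 lower, which is 27.8% of the first list and 95.1% of the second, and none changed direction. Of all genes tested with all libraries, 12.9% were higher and 13.9% lower in every Ocn+/- library than in every WT library, and the genes with the largest rises and falls named below were chosen among such genes. Most changes were small: 37 genes were more than 2-fold higher and 83 more than 2-fold lower with all libraries, and 4 and 32 without WT 3. Scaling by total count alone gave 369 calls with all libraries, of which 47.7% were higher, against 31% under TMM, and it put the median log2 fold change of all genes at 0.09, against 0.01. The labels do not say that libraries of a group came from separate litters, so the p-values measure the spread between these libraries only.

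Targets of HIF were among the genes that fell most. Of 30 textbook hypoxia targets, 28 were tested, and 13 were lower and 1 higher in Ocn+/- with all libraries, where 2.68% of all genes were lower, while 10 were lower and 0 higher without WT 3, where 0.907% were lower. The median log2 fold change of the 28 genes was -0.42 with all libraries and -0.44 without WT 3, against 0.01 in both fits over all genes tested, and 27 of the 28 lay below 0. The list was chosen with earlier results of these data known, so the count is not independent evidence of a direction. Its members Eno1 and Ldha are counted again among glycolytic enzymes, Slc2a1 and Slc16a3 among transporters, and Vegfa among VEGF ligands. Slc2a1 (Glut1, chr4:118965908-118996365, plus strand in GRCm39), the glucose transporter of the blood-brain barrier and glia, lay at 74.0, 88.6 and 93.2 CPM in the 3 WT libraries and at 31.4, 37.9 and 38.8 CPM in the 3 Ocn+/- libraries. The lowest WT value was nearly double the highest Ocn+/- value, and the Ocn-/- libraries lay at 39.5, 36.9 and 39.0 CPM. Expression of Slc2a1 was 2.36-fold lower in Ocn+/- than in WT (log2 fold change -1.24 ± 0.11 (SE), edgeR adjusted p = 3.03e-06) and 2.25-fold lower without WT 3 (-1.17 ± 0.11, edgeR adjusted p = 5.44e-05).

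Vegfa (chr17:46327919-46343309, minus strand), the main growth factor of blood vessels, showed the same lack of overlap, which the rule for naming both genes required. Its values were 81.4, 100.3 and 107 CPM in WT, 40.7, 38.9 and 49.9 CPM in Ocn+/- and 40.5, 38.8 and 43.7 CPM in Ocn-/-. It was 2.22-fold lower in Ocn+/- (log2 fold change -1.15 ± 0.11 (SE), edgeR adjusted p = 1.14e-05) and 2.09-fold lower without WT 3 (-1.07 ± 0.12, edgeR adjusted p = 0.000188). Hif3a (chr7:16764918-16796352, minus strand) encodes a HIF subunit that lacks part of the activation function of the others and is itself induced by hypoxia. It lay at 13.6, 17.2 and 24.5 CPM in WT and 5.34, 3.95 and 3.63 CPM in Ocn+/-, a 4.195-fold difference (log2 fold change -2.07 ± 0.24 (SE), edgeR adjusted p = 6.12e-05) that was 3.54-fold without WT 3 (-1.82 ± 0.23, edgeR adjusted p = 0.000787). WT 3 held the highest WT value of all 3 genes. The transcripts of the oxygen-regulated subunits themselves did not pass the test in either fit. Hif1a lay at 126 to 154 CPM in WT and 128 to 136 CPM in Ocn+/- (edgeR adjusted p = 0.692 with all libraries and 0.944 without WT 3), with a log2 fold change of -0.07 with all libraries that turned to 0.022 under total-count scaling and to 0.017 without WT 3. Epas1, which encodes HIF-2 alpha of endothelial cells, lay at 45.3 to 68.5 CPM and 34.2 to 40.5 CPM (edgeR adjusted p = 0.0639 with all libraries and 0.268 without WT 3). Its values did not overlap, as for the 13.9% of all genes that were lower in every Ocn+/- library. Epas1 passed under 6 of 18 alternatives with all libraries and 0 of 17 without WT 3. Hif3a was the 1 of 10 HIF factors and regulators that passed, in both fits, where 2.68% and 0.907% of all genes were lower.

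The other targets that fell in both fits serve lactate export, pyruvate use, collagen, chromatin and stress. Slc16a3 (Mct4), a lactate exporter of glia, lay at 4.42, 6.91 and 8.72 CPM in WT and 1.62, 1.86 and 2.35 CPM in Ocn+/- (edgeR adjusted p = 0.00278 with all libraries and 0.0257 without WT 3). Pdk1, the kinase that holds pyruvate out of the mitochondrial cycle, lay at 68.9, 79.9 and 98.2 CPM and 52.3, 50.4 and 52.5 CPM (edgeR adjusted p = 0.00188 with all libraries and 0.0141 without WT 3). P4ha1, a collagen prolyl hydroxylase, lay at 28.0 to 47.9 CPM and 17.5 to 23.8 CPM (edgeR adjusted p = 0.00616 with all libraries and 0.0373 without WT 3). For each of these genes every Ocn+/- library was below every WT library, as for 13.9% of all genes tested with all libraries. The histone demethylase gene Kdm3a fell by 0.59 on the log2 scale with all libraries (edgeR adjusted p = 0.00588 with all libraries and 0.0412 without WT 3). The stress genes Ndrg1 and Ddit4 had log2 fold changes of -0.43 and -0.42 with all libraries, with edgeR adjusted p = 0.0156 and 0.0368, and of -0.45 and -0.50 without WT 3, with edgeR adjusted p = 0.0412 and 0.036. The members P4ha2, Bnip3 and Edn1 passed with all libraries only, with edgeR adjusted p = 0.131, 0.0829 and 0.162 without WT 3. The 1 member above 0 was Angptl4, an inhibitor of lipoprotein lipase that is a target of fatty acid receptors as well as of HIF. It lay at 5.34, 3.80 and 3.38 CPM in WT and 13.2, 7.05 and 11.2 CPM in Ocn+/- (edgeR adjusted p = 0.00849 with all libraries and 0.0624 without WT 3). Of the 10 genes lower in both fits, 7 to 9 passed with all libraries when WT 1, WT 2 or any 1 Ocn+/- library was left out. Under scaling by total count alone 7 of the 10 passed in each fit, without Ndrg1, Ddit4 and Ldha with all libraries and without Ndrg1, Kdm3a and P4ha1 without WT 3. Without WT 3 the replicate block also ended the call of P4ha1 (edgeR adjusted p = 0.0556). Starting from the 8 libraries without WT 3, 3 passed without WT 2, 6 without WT 1, and 5, 3 and 6 without Ocn+/- 1, 2 and 3.

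The promoters of the hypoxia targets that fell are shown because HIF binds the core motifs ACGTG and GCGTG. Both motifs were searched on both strands of the window from 250 bases before to 50 bases after the canonical GENCODE start (GRCm39), and a palindromic CACGTG counts on each strand. At least 1 match stood in 8 of the 10 promoters of hypoxia targets that fell in both fits, in 24 of the 30 promoters of the whole list (80%), in 67.2% of the promoters of 119 protein-coding genes lower in both fits, in 46.4% of 28 higher in both fits, in 59.8% of 14278 tested genes and in 48% of all 21757 protein-coding genes. The promoters also differed in base composition, with a median GC content of 61.5% in the 10 promoters and 58% among tested genes, and the part of this in the shares was not tested. The promoters of Ldha, Slc2a1, Slc16a3 and P4ha1, which hold a match, and of Vegfa, which holds none in this window, are given 5′ to 3′ in the direction of the gene, with matches in capitals. Ldha, at chr7:46495013-46495312 on the plus strand, held 8 matches, Slc2a1, at chr4:118965658-118965957 on the plus strand, held 2, Slc16a3, at chr11:120839291-120839590 on the plus strand, held 1, P4ha1, at chr10:59158842-59159141 on the plus strand, held 3, and Vegfa, at chr17:46343260-46343559 on the minus strand, held 0.
Ldha: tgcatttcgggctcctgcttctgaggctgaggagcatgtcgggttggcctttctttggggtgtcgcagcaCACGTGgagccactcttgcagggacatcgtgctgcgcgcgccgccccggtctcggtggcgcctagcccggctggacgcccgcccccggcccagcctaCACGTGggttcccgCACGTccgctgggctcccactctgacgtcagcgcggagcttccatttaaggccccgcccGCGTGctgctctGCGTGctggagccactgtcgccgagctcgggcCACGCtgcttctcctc
Slc2a1: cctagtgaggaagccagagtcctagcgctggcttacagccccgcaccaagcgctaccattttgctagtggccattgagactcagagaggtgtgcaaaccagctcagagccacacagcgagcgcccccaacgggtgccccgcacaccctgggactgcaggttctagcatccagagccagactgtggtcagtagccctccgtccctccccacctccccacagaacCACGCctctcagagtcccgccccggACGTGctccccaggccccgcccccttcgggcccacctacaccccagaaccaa
Slc16a3: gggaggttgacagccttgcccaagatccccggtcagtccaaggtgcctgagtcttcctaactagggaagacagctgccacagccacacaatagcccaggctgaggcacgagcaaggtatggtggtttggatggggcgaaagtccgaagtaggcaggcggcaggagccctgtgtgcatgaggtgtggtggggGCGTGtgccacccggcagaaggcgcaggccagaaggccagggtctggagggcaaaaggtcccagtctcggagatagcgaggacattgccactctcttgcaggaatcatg
P4ha1: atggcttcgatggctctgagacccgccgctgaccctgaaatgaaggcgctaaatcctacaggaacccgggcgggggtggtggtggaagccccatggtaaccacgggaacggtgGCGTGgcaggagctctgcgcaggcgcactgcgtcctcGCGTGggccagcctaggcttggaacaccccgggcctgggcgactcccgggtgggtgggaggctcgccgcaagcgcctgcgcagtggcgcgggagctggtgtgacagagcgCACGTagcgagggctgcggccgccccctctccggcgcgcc
Vegfa: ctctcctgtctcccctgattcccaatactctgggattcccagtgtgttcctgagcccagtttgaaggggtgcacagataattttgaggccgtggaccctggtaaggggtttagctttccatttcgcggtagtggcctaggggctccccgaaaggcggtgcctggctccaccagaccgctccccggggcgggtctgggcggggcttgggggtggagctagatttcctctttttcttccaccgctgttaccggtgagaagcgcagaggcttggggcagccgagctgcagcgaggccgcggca
A match is a description of these letters and not a site that was tested for binding.

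Transcripts of glycolytic enzymes were lower in Ocn+/- forebrain at some steps and not at others. Of 17 glycolytic enzyme genes tested, 6 fell and 0 rose in both fits, where 2.68% and 0.907% of all genes were lower. Of the 17, 14 lay below 0, against 49.1% of all genes with all libraries and 48.8% without WT 3, and the median log2 fold change was -0.24 with all libraries and -0.29 without WT 3. The pathway was also named by the study from these samples, so the count is not independent evidence of its direction. The summed level of the 17 genes was 4094 to 4581 CPM in WT and 3318 to 3627 CPM in Ocn+/-. Gpi1 (chr7:33900755-33929780, minus strand), which isomerises glucose phosphate to fructose phosphate, lay at 273, 329 and 343 CPM in WT and 165, 185 and 182 CPM in Ocn+/- (log2 fold change -0.83 ± 0.09 (SE), edgeR adjusted p = 4.39e-05, and -0.76 ± 0.09, edgeR adjusted p = 0.000582 without WT 3). The platelet-type phosphofructokinase gene Pfkp, which acts at the main control point of the pathway, lay at 433, 396 and 397 CPM and 233, 201 and 264 CPM (log2 fold change -0.81 ± 0.10 (SE), edgeR adjusted p = 0.000221, and -0.83 ± 0.11, edgeR adjusted p = 0.00362 without WT 3). Its liver-type partner Pfkl fell by 0.78 on the log2 scale (edgeR adjusted p = 0.000206 with all libraries and 0.00238 without WT 3). The Ocn+/- values of these 3 genes lay well below the lowest WT value, and 13.9% of all genes were lower without overlap.

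Among the later enzymes, Tpi1 (triose-phosphate isomerase) lay at 187, 213 and 170.4 CPM in WT and 141, 139.9 and 157 CPM in Ocn+/- (edgeR adjusted p = 0.016 with all libraries and 0.0124 without WT 3). Eno1 (enolase 1) lay at 315, 391 and 367 CPM and 209, 209 and 219 CPM (edgeR adjusted p = 2.68e-05 with all libraries and 0.000294 without WT 3). Eno1 shares reads with the near-identical gene Eno1b, and the sum of both was 487 to 607 CPM in WT and 326 to 355 CPM in Ocn+/-. Ldha (lactate dehydrogenase A) lay at 287, 347 and 262 CPM and 212, 228 and 249 CPM (edgeR adjusted p = 0.0286 with all libraries and 0.0211 without WT 3), and its lowest WT value, 262 CPM in WT 3, was close to the highest Ocn+/- value. Several steps did not pass. Hk1, the main hexokinase of brain, lay at 247 to 260.1 CPM in WT and 259 to 267 CPM in Ocn+/- (edgeR adjusted p = 0.65 with all libraries and 0.774 without WT 3), and Gapdh lay at 619 to 709 CPM and 563 to 659 CPM (edgeR adjusted p = 0.701 with all libraries and 0.707 without WT 3). Aldoa and Pgk1 had log2 fold changes of -0.24 and -0.25 with all libraries and did not pass in either fit. Under scaling by total count alone, 4 of the 6 enzymes passed with all libraries and 6 without WT 3. With all libraries, 4 passed when WT 2, Ocn+/- 1 or Ocn+/- 2 was left out. Without WT 3, leaving out WT 2 as well left 3 of the 6 called, and leaving out WT 1 or 1 Ocn+/- library left 4 to 6. Of 3 gluconeogenic enzymes tested, 0 passed in either fit.

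**Figure D2:**
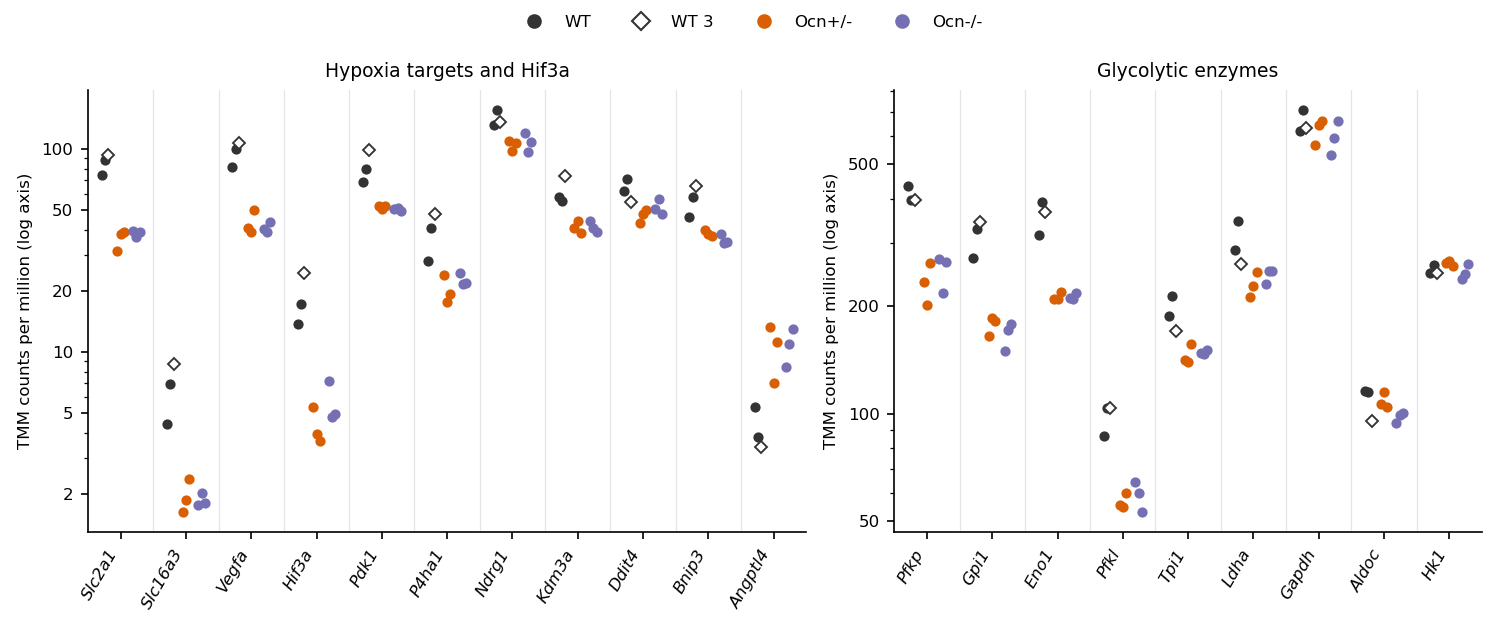
Each point is 1 forebrain library, with CPM on a log axis for hypoxia targets and Hif3a on the left and glycolytic enzymes on the right, WT 3 as an open diamond, and Ocn-/- beside Ocn+/-. The 3 Ocn+/- points of Slc2a1, at 31.4 to 38.8 CPM, lie below the WT points, at 74.0 to 93.2 CPM, and those of Gapdh and Hk1 overlap with the WT points.

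Genes that move other fuels changed in both directions. Among 14 glucose and monocarboxylate transporters, 3 fell (Slc2a1, Slc16a3 and Slc16a6) and 1 rose (Slc16a1) in both fits, where 2.68% and 0.907% of all genes were lower and 1.21% and 0.207% higher. Slc16a6, a transporter of ketone bodies in the liver, lay at 34.8, 32.9 and 34.9 CPM in WT and 10.4, 18.4 and 15.9 CPM in Ocn+/- (edgeR adjusted p = 0.0038 with all libraries and 0.0294 without WT 3). Slc16a1 (Mct1), which carries lactate and ketone bodies into the brain, was higher, at 33.9, 27.1 and 26.7 CPM in WT and 52.1, 45.1 and 50.6 CPM in Ocn+/- (1.67-fold, log2 fold change 0.74 ± 0.12 (SE), edgeR adjusted p = 0.00127; 0.69 ± 0.12, edgeR adjusted p = 0.0103 without WT 3). Cpt1a, the gate for entry of fatty acids into mitochondria, was named after its values were seen. It lay at 29.4, 28.8 and 29.0 CPM in WT and 46.9, 47.2 and 46.8 CPM in Ocn+/- (edgeR adjusted p = 0.00103 with all libraries and 0.00546 without WT 3), with almost no spread within either group. Scd1, which makes monounsaturated fatty acids and was also named after its values were seen, lay at 82.4 to 90.2 CPM in WT and 50.4 to 59.7 CPM in Ocn+/- (edgeR adjusted p = 0.000587 with all libraries and 0.00502 without WT 3).

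Genes of the vessel wall fell in part. Of 14 VEGF and angiopoietin ligands and receptors, 4 fell with all libraries (Vegfa, Angpt2, Flt1 and Kdr) and the first 3 of these without WT 3, where 2.68% and 0.907% of all genes were lower. Angpt2, a ligand that destabilises vessels, lay at 9.07, 11.9 and 11.4 CPM in WT and 3.25, 4.11 and 4.97 CPM in Ocn+/- (edgeR adjusted p = 0.00478 with all libraries and 0.0314 without WT 3). Flt1 (VEGF receptor 1), which binds and sequesters VEGF, lay at 35.2, 49.8 and 63.5 CPM and 22.5, 16.4 and 18.5 CPM, a difference of 2.55-fold with all libraries and 2.20-fold without WT 3 (edgeR adjusted p = 0.00135 with all libraries and 0.00329 without WT 3). Kdr, the main signalling receptor, lay at 53.1, 68.8 and 68.3 CPM and 47.9, 39.3 and 48.5 CPM (edgeR adjusted p = 0.0371 with all libraries and 0.163 without WT 3). Both ligands and the decoy receptor were below every WT value in all 3 Ocn+/- libraries, as the rule for naming them required.

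The endothelial markers as a whole did not move one way. Of 20 tested, 5 were lower (Cav1, Pecam1, Flt1, Kdr and Ly6c1) and 1 higher (Sox18) with all libraries, and 3 lower (Cav1, Flt1 and Ly6c1) and 0 higher without WT 3. Of all genes, 2.68% were lower and 1.21% higher with all libraries, and 0.907% and 0.207% without WT 3. Cav1, the coat protein of caveolae, lay at 67.6, 71.2 and 92.0 CPM in WT and 42.3, 34.9 and 46.2 CPM in Ocn+/- (edgeR adjusted p = 0.000587 with all libraries and 0.0043 without WT 3). The junction genes that define endothelium did not pass: Cldn5 lay at 29.4 to 33.7 CPM in WT and 34.2 to 37.0 CPM in Ocn+/- (edgeR adjusted p = 0.365 with all libraries and 0.598 without WT 3), and Cdh5 at 31.7 to 34.3 CPM and 31.1 to 41.9 CPM (edgeR adjusted p = 0.785 with all libraries and 0.886 without WT 3). The summed level of the 20 markers was 463 to 545 CPM in WT (463 to 511 without WT 3) and 366 to 439 CPM in Ocn+/-. Von Willebrand factor (Vwf) and the receptor gene Adgrl4, both of endothelium and named after their values were seen, fell by 0.92 and 0.98 on the log2 scale with all libraries, with edgeR adjusted p = 0.0018 and 0.000855, and by 0.94 and 0.90 without WT 3, with edgeR adjusted p = 0.0123 and 0.00854. In whole tissue, fewer cells of a type and less RNA per cell cannot be told apart.

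The remaining genes of the 12 named protein-coding genes with the largest falls have other roles. H1f2 encodes a linker histone whose mRNA usually has no poly(A) tail, and the libraries were made from poly(A)-selected RNA. It lay at 20.7, 25.9 and 29.0 CPM in WT and 2.57, 5.81 and 6.52 CPM in Ocn+/-, 5.04-fold lower (edgeR adjusted p = 0.00325 with all libraries and 0.0211 without WT 3). Acer2, an alkaline ceramidase of the Golgi, lay at 10.2, 16.0 and 14.4 CPM and 4.73, 4.34 and 5.17 CPM (edgeR adjusted p = 0.000547 with all libraries and 0.00463 without WT 3). The kinase-related gene Sbk3 lay at 4.65 to 8.72 CPM and 1.96 to 2.22 CPM (edgeR adjusted p = 0.0048 with all libraries and 0.0412 without WT 3). Aasdh lay at 17.2, 18.8 and 22.4 CPM in WT and 9.13, 9.14 and 9.74 CPM in Ocn+/- (edgeR adjusted p = 0.00077 with all libraries and 0.00735 without WT 3), with the Ocn+/- libraries close together. Ly6c1, the last of the 12, is an endothelial and monocyte surface protein gene that lay at 10.3, 10.6 and 6.94 CPM and 5.41, 4.34 and 5.17 CPM (edgeR adjusted p = 0.0256 with all libraries and 0.0259 without WT 3). Of the 12 named genes that fell, 11 (all but Ly6c1) passed with all libraries when any 1 library other than WT 3 was left out, whereas without WT 3 only 3 passed when WT 2 was also left out, 5 when WT 1 was, and 7 to 9 when 1 Ocn+/- library was.

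Among the genes that rose most were 2 that microglia of the developing brain are known to express. The libraries are of whole tissue, so the cells that made these transcripts were not identified. Spp1 (osteopontin, chr5:104582165-104589235, plus strand), a secreted protein of bone matrix and of activated microglia, lay at 9.07, 10.1 and 11.03 CPM in WT and 24.8, 33.9 and 29.0 CPM in Ocn+/-. Every Ocn+/- library held more than double the highest WT value, and the Ocn-/- libraries lay at 23.6, 29.0 and 27.3 CPM. Spp1 was 2.93-fold higher with all libraries (log2 fold change 1.55 ± 0.15 (SE), edgeR adjusted p = 8.63e-06) and 3.06-fold higher without WT 3 (1.61 ± 0.17, edgeR adjusted p = 8.75e-05). Igf1 (chr10:87693642-87772904, plus strand), a growth factor for neurons and oligodendrocytes, lay at 18.8, 16.8 and 16.4 CPM in WT and 39.4, 41.5 and 38.6 CPM in Ocn+/- (log2 fold change 1.19 ± 0.17 (SE), edgeR adjusted p = 0.00103; 1.16 ± 0.20, edgeR adjusted p = 0.0188 without WT 3). The 3 Ocn+/- values of Igf1 lay close together, whereas the Ocn-/- values were 20.8, 37.5 and 33.7 CPM, with the first near the WT range.

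Markers of microglia as a group moved less than these 2 genes. Of 18 homeostatic microglia markers tested, 2 rose (Cx3cr1 and P2ry13) and 0 fell with all libraries and 1 rose (Cx3cr1) without WT 3, where 1.21% and 0.207% of all genes were higher, with medians of 0.18 and 0.09. Cx3cr1, the fractalkine receptor, lay at 11.8, 11.5 and 6.23 CPM in WT and 18.9, 17.98 and 17.7 CPM in Ocn+/- (edgeR adjusted p = 0.0113 with all libraries and 0.0412 without WT 3), with the lowest value in WT 3. The homeostatic markers summed to 161 to 179 CPM in WT (174 to 179 without WT 3) and 186 to 216 CPM in Ocn+/-. Of the activated microglia markers, 3 of 12 tested rose with all libraries (Spp1, Igf1 and Ccl3) and 2 of 13 without WT 3 (Spp1 and Igf1), with 0 lower, beside the same 1.21% and 0.207% of all genes. Their summed level was 938 to 1088 CPM in WT (1057 to 1088 without WT 3) and 1154 to 1223 CPM in Ocn+/-. The median log2 fold change of the activated markers was 0.27 with all libraries and 0.34 without WT 3, with 11 of 12 and 12 of 13 above 0. The part of these marker levels in the rises of Spp1 and Igf1 was not tested.

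Most cytokine and inflammasome genes were at or near 0. The 24 genes listed summed to 109.8 to 145.9 CPM in WT (109.8 to 128.7 without WT 3) and 79.1 to 111.5 CPM in Ocn+/-, most of it from the chemokine gene Cxcl12, which lay at 87.5, 108 and 119 CPM in WT and 60.1, 52.1 and 80.0 CPM in Ocn+/- and did not pass (edgeR adjusted p = 0.0875 with all libraries and 0.261 without WT 3). Of the 24, 11 were tested, 4 rose with all libraries (Ccl3, Il16, Ccr1 and Aim2), where 1.21% of all genes did, and 0 without WT 3, where 0.207% did and edgeR adjusted p values of these 4 were 0.0801, 0.106, 0.116 and 0.0624. The median log2 fold change of the 11 was 1.14 with all libraries and 1.24 without WT 3, with 8 and 9 of them above 0. The study also named inflammation from these samples, so the count and the medians are not independent evidence of a direction. Aim2, a sensor of DNA in the cytosol, lay at 1.91, 1.84 and 1.96 CPM in WT and 6.02, 3.33 and 4.70 CPM in Ocn+/- (edgeR adjusted p = 0.0159 with all libraries and 0.0624 without WT 3). Of 4 IFI200 genes tested, Mndal, which had the largest rise of the 12 named genes, passed in both fits at 0.0763, 0.461 and 1.07 CPM in WT and 1.83, 2.32 and 2.82 CPM in Ocn+/- (edgeR adjusted p = 0.0391 with all libraries and 0.0385 without WT 3), but its reads are shared with near-identical neighbours of the family. Of 23 cell death genes tested, 0 rose and 0 fell in either fit, with medians of 0.06 and 0.07. Over all genes, 3.89% and 1.11% were called in either direction.

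The other genes among the 12 named with the largest rises were of mixed function. Lgi2, a secreted protein of the LGI family, lay at 39.7, 36.1 and 35.0 CPM in WT and 69.0, 78.7 and 67.0 CPM in Ocn+/- (1.93-fold, log2 fold change 0.95 ± 0.11 (SE), edgeR adjusted p = 5.62e-05; 0.92 ± 0.12, edgeR adjusted p = 0.000787 without WT 3). Slc38a5, a glutamine transporter encoded on the X chromosome, lay at 8.92, 9.45 and 11.03 CPM and 17.2, 16.8 and 25.5 CPM (edgeR adjusted p = 0.00187 with all libraries and 0.00702 without WT 3). Inka2, an inhibitor of the kinase Pak4, lay at 7.47 to 11.8 CPM and 17.1 to 27.8 CPM (edgeR adjusted p = 0.00376 with all libraries and 0.0274 without WT 3). Each of the 3 genes was above every WT value in all 3 Ocn+/- libraries, as the rule for naming them required. Cox10, which makes heme A for cytochrome oxidase, lay at 17.8, 17.5 and 11.2 CPM in WT and 24.5, 29.0 and 28.1 CPM in Ocn+/- (edgeR adjusted p = 0.00588 with all libraries and 0.0271 without WT 3), with the lowest WT value in WT 3. Pcp4l1 lay at 14.0, 11.4 and 14.1 CPM in WT and 21.0, 22.2 and 23.9 CPM in Ocn+/- (edgeR adjusted p = 0.00896 with all libraries and 0.0284 without WT 3).

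Rbpj, the DNA-binding factor of Notch signalling, lay at 37.7, 35.0 and 37.2 CPM in WT and 67.2, 59.1 and 53.1 CPM in Ocn+/- (edgeR adjusted p = 0.00127 with all libraries and 0.00854 without WT 3). Its processed pseudogene Rbpj-ps3 went the other way, at 6.71, 6.91 and 6.58 CPM and 1.42, 0.542 and 1.14 CPM (edgeR adjusted p = 0.000221 with all libraries and 0.00238 without WT 3), and the authors' counting may split reads between the copies. The sum of both lay at 41.9 to 44.4 CPM in WT and 54.2 to 68.6 CPM in Ocn+/-, so the groups did not overlap for the sum either. Of the 12 named genes that rose, 11 (all but Mndal) passed with all libraries when any 1 library other than WT 3 was left out. Without WT 3, 1 of the 12 passed when WT 2 was also left out, 3 when WT 1 was, and 6 to 9 when 1 Ocn+/- library was.

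**Figure D3:**
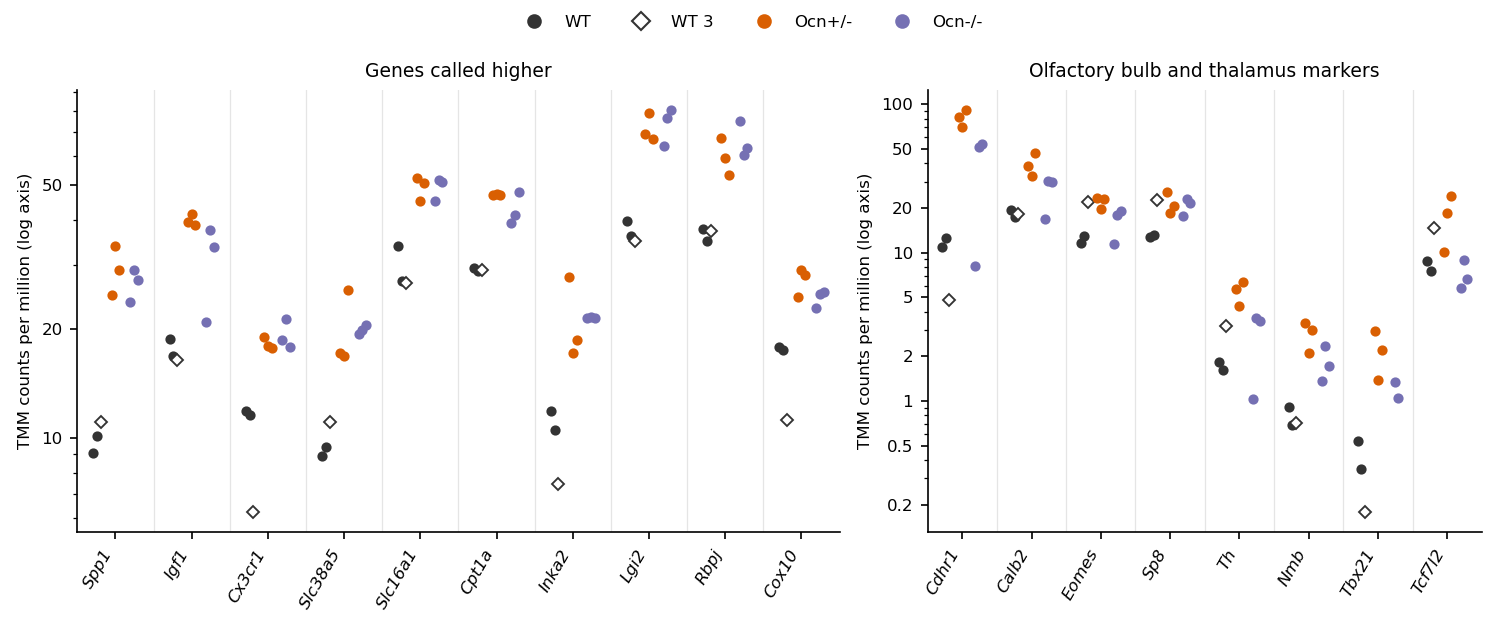
The panels plot CPM on a log axis for each forebrain library for genes that were higher in Ocn+/- on the left and markers of the olfactory bulb and thalamus on the right, with WT, Ocn+/- and Ocn-/- libraries side by side and WT 3 as an open diamond. Spp1 and Igf1 separate WT from Ocn+/-, Cdhr1 and Calb2 are low in WT and in Ocn-/- 1, and the value of 0 of Tbx21 in Ocn-/- 1 is not drawn.

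A few markers of the olfactory bulb and thalamus passed the test in 1 of the 2 fits. Cdhr1, a cadherin of olfactory bulb mitral and tufted cells, lay at 10.9, 12.6 and 4.80 CPM in WT, 82.5, 71.0 and 92.1 CPM in Ocn+/- and 8.15, 51.8 and 54.0 CPM in Ocn-/-. The 3 Ocn+/- libraries were all above 70 CPM and the 3 WT libraries all below 13 CPM, and Ocn-/- was split. Its difference between Ocn+/- and WT did not pass in the fit shared by the 3 genotypes (edgeR adjusted p = 0.0829 with all libraries and 0.242 without WT 3). It passed where the 2 genotypes were fitted alone, at a log2 fold change of 3.05 with all libraries (edgeR adjusted p = 0.000578) and 2.82 without WT 3 (edgeR adjusted p = 8.02e-11). Calb2 (calretinin), a marker of bulb and thalamic neurons, lay at 19.3, 17.5 and 18.1 CPM in WT and 38.5, 32.8 and 47.0 CPM in Ocn+/- (edgeR adjusted p = 0.0101 with all libraries and 0.0797 without WT 3). Of 10 bulb markers tested, Calb2 and Nmb rose with all libraries (1.21% of all genes did), and of 11 tested without WT 3, Eomes and Sp8 rose (0.207% of all genes did). Of the thalamus and habenula markers, 1 of 10 tested rose with all libraries (Calb2) and 0 of 11 without WT 3. The summed level of the bulb markers was 582 to 697 CPM in WT (582 to 628 without WT 3) and 651 to 687 CPM in Ocn+/-, so the groups overlapped with WT 3 and not without it. That of the thalamus and habenula markers was 151 to 184 CPM in WT (151 to 162 without WT 3) and 193 to 210 CPM in Ocn+/-, with no overlap. No bulb marker passed in both fits. The median log2 fold change of the bulb markers was 0.83 with all libraries and 1.10 without WT 3, with 7 of 10 and 9 of 11 above 0. That of the thalamus and habenula markers was 0.35 and 0.98, with 7 of 10 and 10 of 11 above 0. Over all genes the median was 0.01 in both fits.

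The part of the bulb and thalamus markers in the other differences was not tested. Hippocampus and telencephalon markers gave 0 calls among 15 in either fit, with medians of -0.18 and -0.07, and striatum markers 0 calls among 12. Over all genes, 3.89% and 1.11% were called.

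Most long noncoding RNAs (lncRNA) did not pass, and those that did were mostly lower. Of 1011 lncRNA genes tested with all libraries, 39 were lower (3.86%, against 2.68% of all genes) and 4 higher, and of 1103 tested without WT 3, 20 were lower (1.81%, against 0.907%) and 0 higher. Their share of the counts outside structured RNAs was 1.07% to 1.42% in WT and 0.918% to 0.942% in Ocn+/-, with the highest share in WT 3. Genes of the provisional annotation class TEC, mostly of 1 exon, took 0.104% to 0.145% in WT and 0.0810% to 0.0831% in Ocn+/-. Among 35 imprinted genes tested, Meg3, Cdkn1c and Kcnq1ot1 fell in both fits and 0 rose, where 2.68% and 0.907% of all genes were lower. Meg3 (chr12:109506877-109538165, plus strand), a maternally expressed lncRNA of neurons, lay at 1425, 1176 and 1336 CPM in WT and 723, 694 and 852 CPM in Ocn+/- (log2 fold change -0.79 ± 0.09 (SE), edgeR adjusted p = 5.62e-05; -0.78 ± 0.10, edgeR adjusted p = 0.000858 without WT 3). Cdkn1c, a maternally expressed inhibitor of cell division, lay at 59.3 to 77.0 CPM and 37.8 to 46.3 CPM (edgeR adjusted p = 0.00265 with all libraries and 0.0217 without WT 3). Kcnq1ot1, the paternally expressed antisense transcript of Kcnq1 beside Cdkn1c, lay at 17.7, 18.3 and 32.0 CPM and 8.59, 7.90 and 8.67 CPM (edgeR adjusted p = 0.016 with all libraries and 0.0338 without WT 3). With all libraries its call was lost when any 1 of the Ocn+/- libraries was left out, at edgeR adjusted p = 0.0811, 0.0755 and 0.0713 without Ocn+/- 1, 2 and 3, and with the replicate block (edgeR adjusted p = 0.0703). Without WT 3 its call was lost under scaling by total count alone (edgeR adjusted p = 0.0523) and with any further library left out (edgeR adjusted p = 0.0893 to 0.279).

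Some nuclear RNAs were named after their values were seen. Malat1 (chr19:5845717-5853602, minus strand), an abundant lncRNA of nuclear speckles, lay at 529, 460.3 and 871 CPM in WT, 156, 178 and 171 CPM in Ocn+/- and 221, 202 and 154 CPM in Ocn-/-. It was 3.68-fold lower in Ocn+/- with all libraries (edgeR adjusted p = 0.0183) and 2.94-fold lower without WT 3 (edgeR adjusted p = 8.75e-05). Every Ocn+/- value of Malat1 lay below every WT value, as for 13.9% of all genes. With all libraries its call was lost when any 1 of the Ocn+/- libraries was left out, at edgeR adjusted p = 0.0783, 0.0663 and 0.0734 without Ocn+/- 1, 2 and 3, and with the replicate block (edgeR adjusted p = 0.0583). Neat1, the lncRNA of paraspeckles, lay at 6.11 to 9.61 CPM in WT and 5.50 to 7.30 CPM in Ocn+/- and did not pass (edgeR adjusted p = 0.576 with all libraries and 0.894 without WT 3). Snhg14, the paternally expressed transcript that runs opposite to Ube3a, fell by 1.06 on the log2 scale with all libraries and by 0.88 without WT 3 (edgeR adjusted p = 0.00077 with all libraries and 0.000814 without WT 3), and Snhg11 by 0.79 and 0.71 (edgeR adjusted p = 0.000759 with all libraries and 0.00832 without WT 3). Of 16 small nucleolar RNA host genes (Snhg) tested, 5 fell with all libraries and 4 without WT 3, where 3.86% and 1.81% of lncRNA genes were lower, with a median of -0.32 without WT 3. Since the strand setting of the counting is not given in the sources used here, the values of Kcnq1ot1 and Snhg14 cannot be told apart from reads of the genes they overlap, and Slc2a1, Vegfa, Hif3a and Igf1 each hold an annotated antisense gene.

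A few genes of splicing and nuclear export, each named after its values were seen, were among those that fell, and the other genes of these processes were not counted. Nktr, which encodes a cyclophilin with an arginine-serine domain, lay at 162, 156 and 153 CPM in WT and 102, 92.4 and 97.0 CPM in Ocn+/- (edgeR adjusted p = 0.000167 with all libraries and 0.000858 without WT 3). Srrm2, a scaffold protein of nuclear speckles, lay at 657 to 711 CPM and 476 to 520.1 CPM (edgeR adjusted p = 0.00177 with all libraries and 0.00929 without WT 3). The splicing kinase gene Clk4 and the cyclin gene Ccnl1 had log2 fold changes of -0.57 and -0.76 with all libraries, with edgeR adjusted p = 0.00317 and 0.00265, and edgeR adjusted p = 0.0153 and 0.0217 without WT 3. Xpo1, the main nuclear export receptor, lay at 271, 265 and 355 CPM in WT and 160.0, 156 and 176 CPM in Ocn+/- (edgeR adjusted p = 5.62e-05 with all libraries and 0.000127 without WT 3). All 3 Ocn+/- libraries lay below every WT library for each of these genes, as for 13.9% of all genes, and the genes were chosen with these values known.

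**Figure D4:**
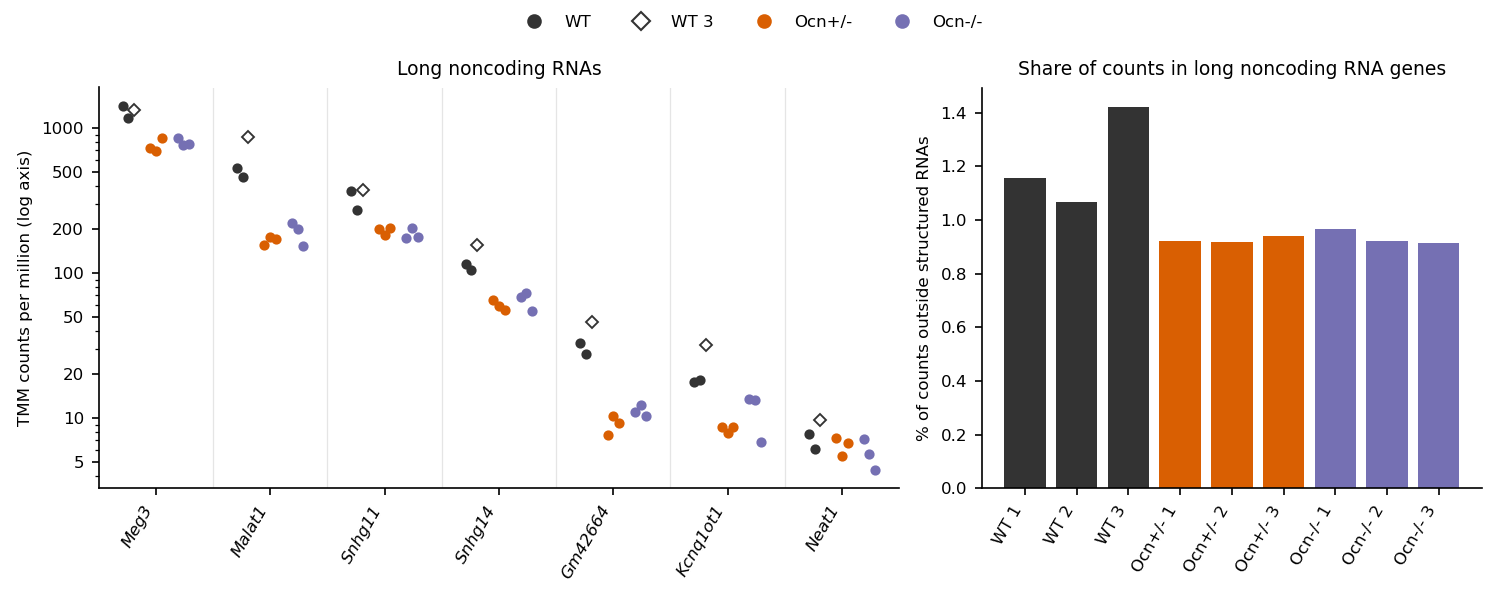
The left panel plots CPM on a log axis for 7 long noncoding RNAs in each forebrain library, with WT 3 as an open diamond, and the right panel the percent of counts outside ribosomal and structured RNAs that fell on lncRNA genes. The lncRNA share was 1.07% to 1.42% in WT and 0.918% to 0.942% in Ocn+/-.

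Ocn+/- and Ocn-/- forebrains, both from Ocn-/- mothers, differed at 1 of 16076 genes (0.00622%) in edgeR's quasi-likelihood test, with 515 genes at an unadjusted p under 0.05, and DESeq2 called 5. Without WT 3 the same gene passed among 16432 (0.00609%). The gene was Gm16105, an unnamed lncRNA gene at chr10:81296993-81298806, plus strand, that lies opposite to Celf5 and was named after its values were seen. It held 76, 58 and 50 counts in WT, 0 counts in each Ocn+/- library and 14, 28 and 13 counts in Ocn-/-. Against a floor of 3 counts per library it was at least 33.6-fold lower in Ocn+/- than in WT, and at least 29.4-fold lower without WT 3. A p that misses the threshold does not show that the 2 genotypes act alike. Ocn-/- against WT shares the WT libraries and gave 780 calls with all libraries (4.85%), 1.8% of genes higher and 3.05% lower, and 189 without WT 3 (1.15%), 0.25% higher and 0.901% lower.

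Of 7 erythroid markers tested, 3 were lower with all libraries, where 2.68% of all genes were, and 2 without WT 3, where 0.907% were. The alpha globin genes Hba-a1 and Hba-a2, which share reads, fell in both fits, and the beta globin gene Hbb-bs with all libraries only (edgeR adjusted p = 0.0301 with all libraries and 0.133 without WT 3). Hba-a1 lay at 195, 171 and 228 CPM in WT and 108, 112 and 111 CPM in Ocn+/- (edgeR adjusted p = 0.00187 with all libraries and 0.0123 without WT 3). The erythroid markers summed to 524 to 724 CPM in WT (524 to 606 without WT 3) and 358 to 409 CPM in Ocn+/-, and to 487 to 600.4 CPM in Ocn-/-, and their part in the other differences was not tested. In the lists that follow, at most 1 gene passed in each direction, and a single call does not describe its list. Of all genes, 1.21% were higher and 2.68% lower with all libraries, and 0.207% and 0.907% without WT 3. Jun was the 1 of 23 immediate-early genes that passed, at 51.7 to 61.0 CPM in WT and 34.3 to 44.1 CPM in Ocn+/- (edgeR adjusted p = 0.00807 with all libraries and 0.0412 without WT 3). Per1 was the 1 of 19 clock genes that passed with all libraries (-0.49 on the log2 scale, edgeR adjusted p = 0.0402), and 0 passed without WT 3 (edgeR adjusted p of Per1 = 0.154), where 14 of 19 lay above 0. Among 16 neuron markers, Slc17a7, a glutamate transporter of vesicles, was higher and Dcx, a marker of young neurons, lower with all libraries (edgeR adjusted p = 0.0188 and 0.0151), and 0 passed without WT 3 (edgeR adjusted p = 0.0758 and 0.0644).

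**Figure D5:**
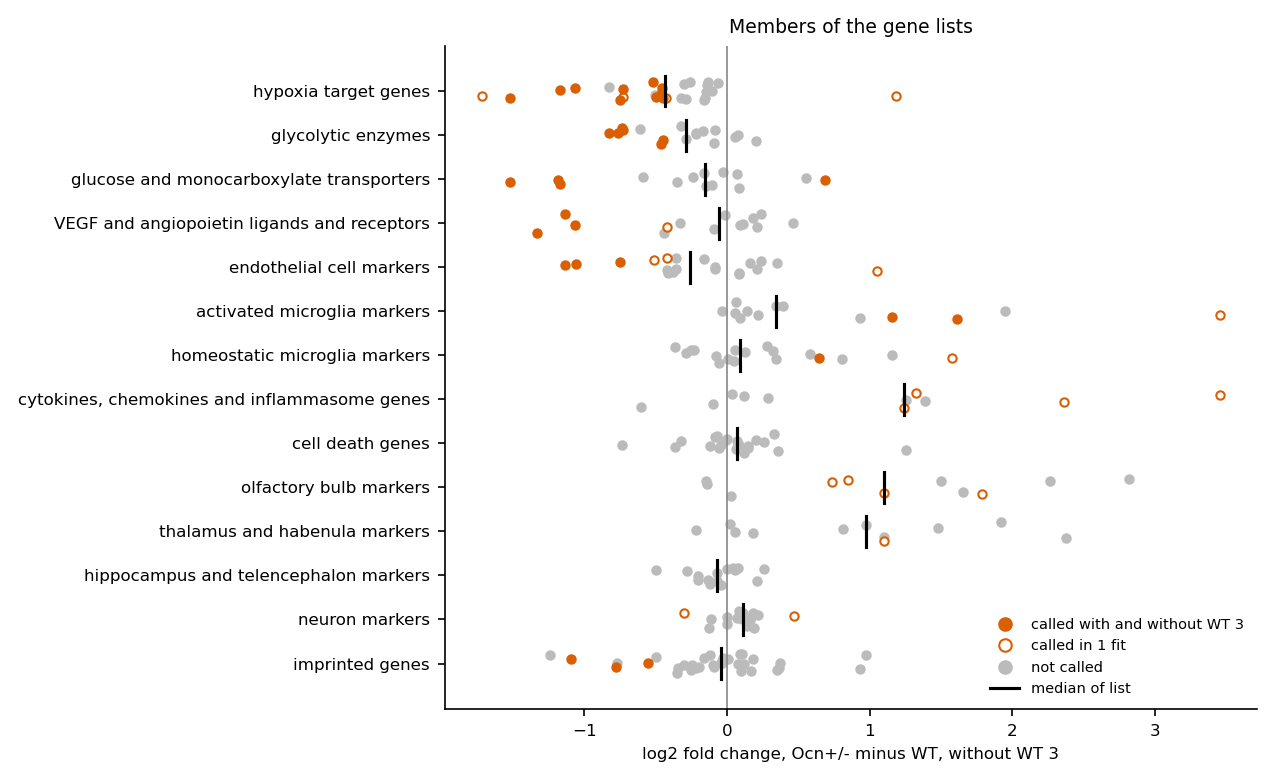
Each point is 1 gene of a list, at its log2 fold change of Ocn+/- against WT without WT 3, with filled points for genes that passed with and without WT 3, open points for 1 of the 2 fits, grey for neither and a bar at the median of the list. The median of the hypoxia targets is -0.44 and that of the cell death genes 0.07.

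The receptors of osteocalcin in brain did not pass the test. Gpr158 lay at 16.8, 13.6 and 15.5 CPM in WT and 20.4, 24.6 and 16.8 CPM in Ocn+/- (edgeR adjusted p = 0.118 with all libraries and 0.247 without WT 3). Gpr37 lay at 8.01, 8.75 and 8.54 CPM and 10.4, 10.9 and 10.8 CPM (edgeR adjusted p = 0.362 with all libraries and 0.519 without WT 3). For both genes every Ocn+/- library lay at or above the highest WT library, as did 12.9% of all genes tested. Within 5 megabases of Bglap on either side, 7 of 130 genes passed with all libraries (5.38%, against 3.89% of all genes) and 2 of 133 without WT 3 (1.5%, against 1.11%).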

How the data were processed

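RNA was sequenced from forebrains of newborn mice, 3 libraries each of WT, Ocn+/- and Ocn-/-, and the testis libraries were not used here. A legend of the study gives 2 WT forebrains, and which of the 3 deposited libraries they are is not stated. RNA with an integrity number judged sufficient by the authors was poly(A)-selected and made into libraries with random hexamer priming, and the reads were sequenced on an Illumina HiSeq. The submitters' processing notes name Trim Galore 0.6.6, STAR 2.7.8a and RSEM 1.3.3 and the build GRCm39. The table deposited by the authors holds RSEM expected counts per gene, and 9625 of its 55359 genes hold at least 1 value that is not whole. The GENCODE release and the strand setting are not given in the sources used here. All columns were matched to samples by the description in the labels, and 54749 genes were matched by identifier to the GENCODE vM39 annotation.

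Expected counts were rounded to whole numbers and fitted in R 4.3.3 with edgeR 4.0.16 (TMM scaling, filterByExpr by group, robust quasi-likelihood fit and two-sided test), with no covariates, over all 9 forebrains and again over the 8 without WT 3, and p-values were adjusted by Benjamini-Hochberg over all genes tested. A gene was called at an adjusted p under 0.05, and no p was computed for a list. Libraries held 6518151 to 14621584 counts, and PCR copies are not independent molecules, so floors cover counting error only. On simulated counts 200 genes were changed 2- or 4-fold. With all libraries, 194 of them were tested and 83% of these found (70.1% at 2-fold, 95.9% at 4-fold), with 16 false calls. Without WT 3, 187 were tested and 79.1% found (66.3% and 92.4%), with 6 false calls. Changes below 2-fold, as in most genes called here, were not simulated, nor was the differing composition of WT 3. Fold changes are printed with standard errors from the fit, and CPM are TMM-scaled values.

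The 12 higher and 12 lower genes named were the protein-coding genes with a given name and the largest mean log2 fold change over both fits, among those called in both, with no overlap between the 3 Ocn+/- and 3 WT values and at least 1 CPM on average where they were higher. Members of the lists were named beside them, and other genes are said to have been named after their values were seen. Of the 12 higher genes, 1 is counted but not reported here by name. The members, the lists and this rule were chosen with earlier results of these data known. Same-numbered libraries of different genotypes were at most weakly correlated (r of their deviations -0.04 to 0.15), so replicate numbers were not used as pairs. For libraries of different numbers r was -0.20 to 0.11, and the highest r was that of Ocn+/- 3 with Ocn-/- 3. Alternatives were other scalings, other filters on low counts, DESeq2 1.42.0, limma 3.58.1 voom with quality weights, the likelihood ratio test of edgeR, the 2 genotypes fitted alone, a replicate block and leaving out each library, and a fit of autosomal genes alone was added after seeing the data. Promoter windows were read from the GRCm39 genome.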

Additional observations from a re-analysis of the deposited data

How the results depend on the processing

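With all libraries the count of genes called was 369 under scaling by total count alone, 1265 with no filter on low counts and 944 with edgeR's likelihood ratio test, against 625 as reported. It stayed within 1.5 times of 625 under the other scalings, the stricter filter, DESeq2, voom, the fit of the 2 genotypes alone and autosomal genes alone. Leaving out 1 library gave 183 (without WT 3) to 507 (without WT 1), with 373 without WT 2 and 298, 312 and 273 without Ocn+/- 1, 2 and 3. Without WT 3 the count was 644 with no filter, 361 with DESeq2, 413 with voom, 426 with the likelihood ratio test and 471 with the 2 genotypes alone, against 183. Leaving out a further library gave 17 (without WT 2) to 112 (without Ocn+/- 1), with 42 without WT 1 and 64 and 95 without Ocn+/- 2 and 3. Where WT 1 or WT 2 was also left out, the lone WT library was assumed to vary like the other groups. The Ocn-/- against Ocn+/- count was 5 with DESeq2 and 1 to 2 with 1 library left out. The cause of these differences was not tested.

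Pairing by replicate number gave 768 calls with all libraries and 511 without WT 3 in the fit with a replicate block, and 1 for Ocn-/- against Ocn+/-. Same-numbered libraries were at most weakly correlated, so the numbers were not taken as pairs. Among the genes followed, the block took the calls of Malat1, Kcnq1ot1 and Ntrk3 with all libraries (edgeR adjusted p = 0.0583, 0.0703 and 0.0577) and of P4ha1 and Sox4 without WT 3 (edgeR adjusted p = 0.0556 and 0.136).

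Slc2a1, Vegfa, Hif3a, Eno1, Gpi1, Spp1, Meg3, Nktr, Snhg14, Xpo1, Gm42664 and Gm16105 passed under every alternative in which they were tested, in both fits. Of 118 genes followed, the direction turned for 4 that did not pass. Hif1a was at 0.022 under scaling by total count alone and at -0.13 to 0.017 with 1 library left out, and without WT 3 at -0.026 to 0.067 with a further library left out. Gapdh was at 0.012 under scaling by total count alone and, without WT 3, at -0.19 to 0.0098 with a further library left out. Cdh5 was at -0.055 to 0.18 with 1 library left out and, without WT 3, at -0.069 to 0.16 with a further library left out and at -0.10 with the replicate block. Neat1 was, without WT 3, at -0.25 to 0.10 with a further library left out. Among genes that fell in both fits, scaling by total count alone also ended the calls of Tpi1, Ly6c1, Hspa5, Calr, Grm3 and Scd2 with all libraries and of Sbk3, Calr, Grm3, Gria2 and Ogt without WT 3. All other gene values kept their direction. Counting each gene under each alternative once, a call was lost in 155 and gained in 33 of 2108 values with all libraries, and lost in 227 and gained in 107 of 1991 without WT 3.

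Depth limits the genes near 1 CPM, such as Ccl3, Ccr1 and Mndal, and the call of Mndal was lost with any library other than WT 3 left out and, without WT 3, with any further library left out. The WT group holds 2 libraries with Y-linked counts and 1 with Xist.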

Other observations

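Further genes, all named after their values were seen, changed outside the groups above. The endoplasmic reticulum chaperone genes Hspa5 and Calr were lower in Ocn+/- forebrain. Hspa5 lay at 308, 322 and 292 CPM in WT and 233, 229 and 246 CPM in Ocn+/- (edgeR adjusted p = 0.0101 with all libraries and 0.0217 without WT 3), and Calr at 404, 405 and 396 CPM and 310.2, 269 and 333 CPM (edgeR adjusted p = 0.00928 with all libraries and 0.0323 without WT 3). Every Ocn+/- library was below every WT library for both, as for 13.9% of all genes tested with all libraries. Under scaling by total count alone neither passed with all libraries, and Calr did not pass without WT 3. Single genes of amino acid supply were higher. Slc7a1, the transporter of arginine and lysine, lay at 126, 112 and 113 CPM in WT and 159, 158 and 170.1 CPM in Ocn+/- (edgeR adjusted p = 0.0048 with all libraries and 0.0274 without WT 3), and Aars1, the alanyl-tRNA synthetase, at 152, 160.5 and 133 CPM and 212, 211 and 212 CPM (edgeR adjusted p = 0.00389 with all libraries and 0.0294 without WT 3). Rbm3, an RNA-binding protein induced by cold and encoded on the X chromosome, lay at 206, 191 and 212 CPM and 249, 296 and 289 CPM (edgeR adjusted p = 0.00575 with all libraries and 0.0178 without WT 3).

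Of the glutamate receptor genes, 2 are given here and the others were not counted. Gria2, the AMPA receptor subunit that limits calcium entry, lay at 501, 462 and 497 CPM in WT, 340.4, 309.6 and 302 CPM in Ocn+/- and 425, 383 and 300.3 CPM in Ocn-/- (edgeR adjusted p = 0.00278 with all libraries and 0.0314 without WT 3 for Ocn+/- against WT). Grm3, a metabotropic receptor, lay at 68.1, 59.9 and 59.6 CPM, 50.5, 44.8 and 42.2 CPM and 64.6, 59.3 and 54.3 CPM (edgeR adjusted p = 0.0185 with all libraries and 0.0466 without WT 3). The difference between Ocn-/- and Ocn+/- did not pass for either gene. Under scaling by total count alone, Grm3 passed in neither fit, and Gria2 did not pass without WT 3. Klf9, a transcription factor induced by glucocorticoid and thyroid hormone, lay at 61.2, 64.9 and 54.6 CPM in WT and 37.9, 39.7 and 45.3 CPM in Ocn+/- (edgeR adjusted p = 0.00578 with all libraries and 0.00965 without WT 3), and Igfbp3, which binds insulin-like growth factors, at 40.5, 47.5 and 44.3 CPM and 29.8, 27.9 and 30.3 CPM (edgeR adjusted p = 0.00474 with all libraries and 0.0217 without WT 3). Among the remaining lists, Gfap of 15 radial glia and astrocyte markers, Olig1 of 12 oligodendrocyte markers and Alx4 of 13 meninges and fibroblast markers were higher, and Ccnd2 of 18 cell division genes, Ntrk3 of 8 neurotrophin genes and Abcc9 of 11 pericyte markers were lower, with all libraries. Of all genes, 1.21% were higher and 2.68% lower with all libraries, and 1 call in a list does not describe the list. None of these 6 genes passed without WT 3. Radial glia and astrocyte markers summed to 1465 to 1540 CPM in WT (1507 to 1540 without WT 3) and 1649 to 1680 in Ocn+/-. Oligodendrocyte markers summed to 284 to 320 CPM (312 to 320 without WT 3) and 340 to 372 CPM. Sums of cell division genes (649 to 865 CPM and 613 to 630 CPM) and neurotrophin genes (946 to 1025 CPM and 835 to 906 CPM) were lower. Those of the meninges and pericyte lists overlapped.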
